A study of Homo sapiens with 48 samples.

Results

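The response of human airway epithelial cells to 1 h of combined β2-adrenoceptor stimulation and phosphodiesterase 4 inhibition was read from 8 of the 48 arrays of the series. They were the 4 arrays titled as treated with Ind/GSK for 1 h and the 4 titled as treated with vehicle for 1 h, chosen by title alone and matched by replicate number. Ind/GSK is indacaterol, a long-acting β2-adrenoceptor agonist, given with GSK 256066, an inhibitor of phosphodiesterase 4, each at 10 nM. The rest of the series holds the same treatments at 2, 6 and 18 h and GS-5759 at 10 nM, a single molecule with both activities, in 12 groups of 4 arrays. All groups are BEAS-2B, an immortalised human bronchial epithelial cell line, grown to confluence and kept in serum-free keratinocyte medium for the last 24 h before treatment, with growth factor supplements named only for the days before that. The line is 1 line, and no label states that its replicates came from separate cultures; the p-values below therefore cover only the spread among these arrays, part of which may be technical.

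Binding of an agonist to the β2-adrenoceptor activates the G protein Gs and adenylyl cyclase, which makes cAMP. Phosphodiesterase 4 breaks cAMP down, so an agonist and an inhibitor of that enzyme act on the same messenger from opposite sides. cAMP activates protein kinase A, which phosphorylates the transcription factor CREB, and CREB with its CRTC coactivators switches on a set of rapidly transcribed genes, among them the NR4A nuclear receptors and the kinase SIK1. In airway epithelium this pathway is the target of bronchodilator and anti-inflammatory drugs and is known to induce both protective and inflammatory genes.

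The arrays numbered replicate 3 stood apart in all 12 groups. Signal of KRT14, the basal keratinocyte keratin, was 186900 to 441000 in the 12 replicate 3 arrays and 13.3 to 31.9 in the other 36. KRT5, its partner keratin, read 29510 to 36310 against 108 to 277, and 279 probe sets (1.13% of those tested) were at least 2-fold higher in replicate 3 in every group. Of these 0 were called as changed by Ind/GSK at 1 h, but the main fit could hardly have called them. It has no replicate term and counts the difference as spread (SE of the log2 change 4.41 for KRT14 and 2.58 for KRT5). The 0 therefore tells nothing of their response. What this difference does to the results was not tested beyond giving values with and without replicate 3, and in RNA from whole cultures fewer cells of a type and less RNA per cell cannot be told apart. Simple epithelial keratins KRT8 (4802 to 6595 with vehicle) and KRT18 (8213 to 9043) were high on every vehicle array, COL1A1 of fibroblasts was also high (7281 to 9788), and PTPRC of leukocytes, CDH5 of endothelium and FOXJ1 of ciliated cells stayed at or below 30.7 with vehicle. Other members of these lists went the other way. LYZ read 291 to 533, PECAM1 424 to 570 and TUBA1A 3865 to 5755 with vehicle. EPCAM (57.0 to 256), COL1A2 (81.7 to 146) and COL3A1 (69.5 to 85.3) were low. By list, 5 of 7 basal, 4 of 6 simple epithelial, 4 of 7 fibroblast, 3 of 7 ciliated and club cell, 2 of 5 leukocyte and 1 of 5 endothelial markers on the array passed the filter on low signal. None was called as changed at 1 h, with or without the replicate number in the model.

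After 1 h a short list of genes had risen steeply, led by NR4A2, NR4A3 and IL6, and the falls were small, with a number that depended on array scaling. Of 24654 probe sets tested, 112 rose (0.454%) and 475 fell (1.93%) at an adjusted p below 0.05 (limma with Benjamini-Hochberg adjustment, n = 4 arrays per group), and 5136 had an unadjusted p below 0.05. Sizes were unequal: 32 probe sets of 22 genes rose at least 2-fold (0.13%), and a single probe set, for EGR1, fell that far. The number of rises ran from 83 to 219 over the scalings tried, and 98 probe sets of 75 genes (0.398%) were also called once each array had been centred on its 75th percentile or quantile normalized, all 32 of the 2-fold rises among them; after centring on the median 81 of the 98 were called. Only 30 falls of 28 genes (0.122%) met the same 3 conditions. All 4 Ind/GSK arrays lay above all 4 vehicle arrays for 246 probe sets (0.998%) and below them for 1883 (7.64%). Same-numbered vehicle and Ind/GSK arrays had correlated deviations from their group means (0.245 to 0.914), but vehicle 4 with Ind/GSK 2 also reached 0.687. Pairing by number is thus only partly borne out. With the replicate number as a block 501 probe sets rose and 5093 fell, all 98 rises and 30 falls called under 3 scalings among them. Leaving out 1 array changed the counts most for vehicle 1 (52 risen and 91 fallen), vehicle 2 (52 and 84), Ind/GSK 1 (64 and 130) and Ind/GSK 2 (62 and 102), and without vehicle 4 there were 183 rises. Taking the brightest probe set of each gene, 73 of 13372 genes rose (0.546%) and 214 fell (1.6%).

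**Figure D1:**
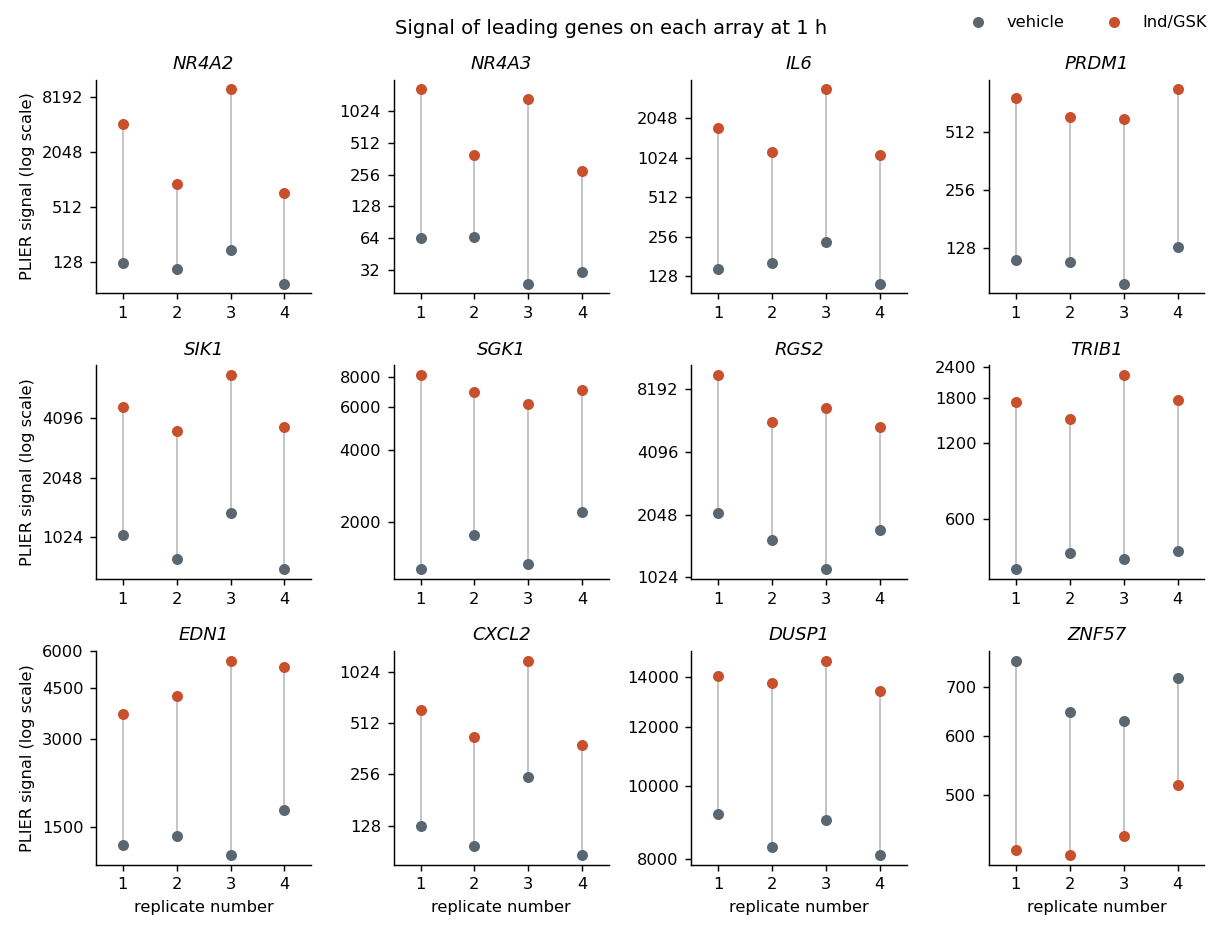
Signal of 12 genes at 1 h, 11 risen and 1 fallen (ZNF57), against replicate number, on log axes whose range differs by panel. Each point is 1 array (grey vehicle, orange Ind/GSK) and lines join same-numbered arrays. NR4A2 runs from 73.3 to 171 with vehicle and from 716 to 9934 with Ind/GSK, whereas ZNF57 runs from 630 to 759 and from 414.5 to 516.

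The largest rises were in the NR4A family, orphan nuclear receptors that act as transcription factors and are textbook targets of CREB. NR4A2 read 124, 107, 171 and 73.3 in vehicle replicates 1 to 4 and 4095, 919, 9934 and 716 in the same-numbered Ind/GSK arrays. The groups did not overlap, and replicates 1 and 3 rose most. NR4A2 rose 17.7-fold, a log2 change of 4.14 ± 0.78 (SE, n = 4; limma adjusted p = 0.00232), which was 3.44 without Ind/GSK replicate 3 and stayed called without any 1 array. NR4A3 read 63.9, 65.3, 24.0 and 31.1 with vehicle and 1627, 391, 1319 and 279 with Ind/GSK, again highest in replicates 1 and 3 and without overlap (log2 change 3.60 ± 0.57, limma adjusted p = 0.000263). NR4A1 signal was 288, 257, 244 and 247 with vehicle and 1097, 663, 1385 and 504 with Ind/GSK (log2 change 1.65 ± 0.33, limma adjusted p = 0.00427). All 3 members thus rose, with the lowest treated array of each above the highest vehicle array. Their differences by pair ran from 2.93 to 5.73 for NR4A2, from 2.32 to 5.06 for NR4A3 and from 0.98 to 2.43 for NR4A1 on the log2 scale, in each with pairs 1 and 3 above pairs 2 and 4. The other tested probe sets of NR4A2 gave 4.08 and 4.00, so the rise does not rest on 1 probe set.

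SIK1, the salt-inducible kinase that phosphorylates CRTC coactivators and so restrains CREB, rose 4.70-fold. Its signal was 1052, 792, 1364 and 705 with vehicle and 4671, 3536, 6736 and 3707 with Ind/GSK (log2 change 2.23 ± 0.38, limma adjusted p = 0.000745). The lowest treated array stood far above the highest vehicle array, and the 4 pair differences were close, from 2.13 to 2.37. Its relative SIK2 was at -0.10 at 1 h (adjusted p = 0.79; 0.03 after quantile normalization) and SIK3 at -0.12 (adjusted p = 0.822). LINC00473, a long non-coding RNA known as a CREB target, read 216, 191, 95.7 and 184 with vehicle and 671, 549, 322 and 519.7 with Ind/GSK. Each pair rose by a like amount, 1.42 to 1.6, and replicate 3 was lowest in both groups (log2 change 1.51 ± 0.30, limma adjusted p = 0.00465).

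Across a list of 23 cAMP-CREB target genes, 17 passed the filter on low signal and 7 of them rose, none fell: NR4A2, NR4A3, SIK1, RGS2, NR4A1, LINC00473 and DUSP1. Of all genes 0.546% rose and 1.6% fell. The median log2 change of the 17 was 0.89 and 13 were above 0, beside a median of -0.10 over all 13372 genes, of which 2576 were above 0. This list, like the others, was chosen with earlier results of these data known. Its difference from all genes therefore describes the list and tests nothing. Members without a call included BDNF, a neurotrophin, at 0.89 (adjusted p = 0.102), the AP-1 factor JUNB at 0.70 (adjusted p = 0.278) and the stress factor ATF3 at 0.70 (adjusted p = 0.472). The cyclin gene CCNA2 was at -0.22 (adjusted p = 0.236). With the replicate number as a block in the model, 13 of the 17 were called as risen, where 319 of all genes were (2.39%) and 2419 were called as fallen (18.1%). Leaving replicate 3 out of every group gave 9 of the 17, where 85 of all genes were called as risen (0.636%).

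Sequence before the gene start was looked at for the cAMP response element, the palindrome TGACGTCA that CREB binds, and for its 5-base core TGACG, on both strands; a match to the palindrome also counts as a core match. The window ran from 250 bases before to 50 after the start, from RefSeq on GRCh38.p14. Of the 10 largest rises, 8 had an entry, and there is none here for NR4A2 and TRIB1. The palindrome was in 0 of the 8 and the core in 5: NR4A3, IL6, SIK1, RGS2 and CXCL2. The 250 bases before the start are shown for the 3 genes with the most core matches, 5′ to 3′ on the strand of the gene, with the core in capitals on either strand. They lie at chr9:99821635-99821884 (plus strand), chr7:22726950-22727199 (plus strand) and chr21:43427132-43427381 (minus strand).
NR4A3: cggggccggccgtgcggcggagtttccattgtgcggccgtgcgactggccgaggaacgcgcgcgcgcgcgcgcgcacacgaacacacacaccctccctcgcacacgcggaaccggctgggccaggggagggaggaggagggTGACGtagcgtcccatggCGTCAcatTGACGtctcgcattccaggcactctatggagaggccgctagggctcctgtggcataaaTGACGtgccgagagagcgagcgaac
IL6: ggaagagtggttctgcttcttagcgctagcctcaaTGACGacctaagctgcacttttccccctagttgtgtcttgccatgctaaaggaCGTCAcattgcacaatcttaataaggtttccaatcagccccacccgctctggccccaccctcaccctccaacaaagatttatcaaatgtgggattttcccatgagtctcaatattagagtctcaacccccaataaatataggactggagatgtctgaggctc
SIK1: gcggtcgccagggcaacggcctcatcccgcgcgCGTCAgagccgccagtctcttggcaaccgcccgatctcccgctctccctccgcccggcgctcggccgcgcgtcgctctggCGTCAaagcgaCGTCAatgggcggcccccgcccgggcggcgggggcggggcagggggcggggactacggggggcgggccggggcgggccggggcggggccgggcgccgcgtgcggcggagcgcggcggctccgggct
NR4A3 holds 4 core matches, whose first bases lie at -109, -91, -83 and -25 from the start. IL6 has them at -215 and -162, and SIK1 at -217, -137 and -126. Over all 27305 promoters in the table, 25% hold the core and 1.98% the palindrome. Of the 73 risen genes 59 had an entry, and 30.5% of these held the core and 5.08% the palindrome. For genes risen at least 2-fold the core was in 10 of 17 (58.8%), and for the 13 genes fallen under 3 scalings it was in 8 of 13 (61.5%). A match is a run of letters and not a shown binding site.

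By the brightest probe set no gene that makes or destroys cAMP was called at 1 h in the main fit, although PDE4B and PDE4D were above vehicle in all 4 pairs. Of 22 tested genes for receptors, G proteins, adenylyl cyclases, protein kinase A and their regulators, none was called in either direction by that probe set. Their median log2 change was -0.13 (-0.04 after quantile normalization). Another probe set was called as fallen without further scaling for 3 genes of the list. Of all 13374 genes with a tested probe set, 429 had a fallen one. GNAS, the Gs α subunit, was at -0.03, and PRKACA, a catalytic subunit of protein kinase A, at -0.13. Among 11 phosphodiesterase genes none was called, and the median was -0.08 without further scaling and 0.05 after quantile normalization, so its sign depends on scaling. PDE4B, a target of GSK 256066, read 363, 292, 359.7 and 319 with vehicle and 578, 411, 832 and 513 with Ind/GSK. All treated arrays lay above all vehicle arrays, but the change of 0.74 ± 0.24 missed the threshold (limma adjusted p = 0.0749, or 0.00686 with the replicate block). Without replicate 3 in any group PDE4B was called as risen, at 0.59 (limma adjusted p = 0.00746), where 0.636% of all genes were. PDE4D read 486, 264, 525 and 309 with vehicle and 933, 429, 1455 and 527 with Ind/GSK. Those groups overlapped, since treated replicate 2 lay below vehicle replicates 1 and 3 (0.94 ± 0.44, limma adjusted p = 0.219; 0.00081 with the replicate block). PDE4A was at -0.15 (adjusted p = 0.261). CREM, whose inducible repressor form is a CREB target, was at -0.03 (adjusted p = 0.879), and 0.09 after quantile normalization.

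Among genes known as glucocorticoid-inducible or airway-protective, PRDM1, SGK1, RGS2 and DUSP1 rose, the last pair also counted among the cAMP-CREB targets. PRDM1, a transcriptional repressor also called BLIMP1, read 111, 108.5, 83.3 and 130 with vehicle and 774, 613, 603 and 858 with Ind/GSK. Its groups were far apart and its pair differences nearly equal, 2.34 to 2.64 (log2 change 2.55 ± 0.26, limma adjusted p = 2.51e-08). SGK1, a serum- and glucocorticoid-induced kinase that regulates epithelial sodium channels, read 1278, 1775, 1346 and 2210 with vehicle and 8122, 6905, 6198 and 7067 with Ind/GSK. It rose 4.33-fold with no overlap (log2 change 2.12 ± 0.21, limma adjusted p = 1.73e-08). RGS2, which shortens Gq signalling and is known as bronchoprotective, read 2081, 1554, 1117 and 1720 with vehicle and 9593, 5708, 6703 and 5400 with Ind/GSK (log2 change 2.07 ± 0.28, limma adjusted p = 2.05e-05). It was the only one of 10 tested RGS genes to be called, and the median of the 10 was -0.11 (-0.02 after quantile normalization).

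Of 22 tested members of that glucocorticoid and airway list, 4 rose and 0 fell, where 0.546% and 1.6% of all genes did. The fourth was DUSP1, the phosphatase that switches off MAP kinases. Its 3 tested probe sets rose by 0.70, 1.70 and 0.51 on the log2 scale, the brightest by the first of these, at 8089 to 9179 with vehicle and 13410 to 14710 with Ind/GSK. The list's median was 0.32 with 19 of 22 above 0. CD200, an immune inhibitory ligand, was at 1.02 (adjusted p = 0.0548), NFIL3, a repressor of the bZIP class, at 0.87 (adjusted p = 0.131) and THBD, thrombomodulin, at 0.69 (adjusted p = 0.075). TSC22D3, the leucine zipper known as GILZ, was at 0.26 (adjusted p = 0.137) and FKBP5 at -0.11 (adjusted p = 0.758). With the replicate block 14 of the 22 were called as risen (2.39% of all genes), 7 after 75th percentile centring (1.08% of all genes) and 8 without replicate 3 in any group (0.636% of all genes).

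Of inflammatory genes, IL6 and CXCL2 rose. IL6, the pleiotropic cytokine, read 145, 161, 233 and 113 with vehicle and 1733, 1141, 3393 and 1077 with Ind/GSK. Replicate 3 was highest in both groups and the groups did not overlap (9.54-fold, log2 change 3.25 ± 0.48, limma adjusted p = 8.62e-05). CXCL2, a neutrophil chemokine, read 128, 96.9, 246 and 86.3 with vehicle and 608, 425, 1181 and 381 with Ind/GSK. Here too replicate 3 was highest in both groups, and pair differences were 1.96 to 2.19 (log2 change 2.06 ± 0.41, limma adjusted p = 0.00424). The CXCL2 probe set is of a type named x_at, whose probes can match related transcripts, and another tested probe set of CXCL2 was at 0.11 (adjusted p = 0.673). None of the other tested cytokine, chemokine and adhesion genes was called (2 of 11 risen, beside 0.546% of all genes, median 0.23). The IL6-family cytokine LIF was at 0.68 (limma adjusted p = 0.237), CXCL1 at 0.48 (limma adjusted p = 0.395) and ICAM1 at -0.12 (limma adjusted p = 0.815).

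EDN1, which encodes the vasoconstrictor and bronchoconstrictor endothelin-1, read 1304, 1406, 1206 and 1718 with vehicle and 3654, 4221, 5569 and 5299 with Ind/GSK. All treated arrays were above all vehicle arrays (3.28-fold, log2 change 1.71 ± 0.17, limma adjusted p = 1.69e-08). Its other tested probe sets rose by 1.81 and 0.49. It was the only called gene among 16 tested growth factor and vasoactive peptide genes, whose median was 0.04; with the replicate block 4 rose and 1 fell, where 2.39% and 18.1% of all genes did.

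Feedback inhibitors of MAP kinase signalling rose in part. TRIB1, a pseudokinase that binds MEK1 and the ubiquitin ligase COP1, read 378, 439.8, 414.5 and 446 with vehicle and 1745, 1487, 2227 and 1782 with Ind/GSK. The groups were far apart, and TRIB1 had the lowest adjusted p of the named genes (4.16-fold, log2 change 2.06 ± 0.17, limma adjusted p = 3.6e-10). SPRY2, an inhibitor of growth factor receptor signalling, rose by 1.06 ± 0.22 (limma adjusted p = 0.00648) and DUSP4, a nuclear MAP kinase phosphatase, by 0.65 ± 0.12 (limma adjusted p = 0.00249). With DUSP1 these were 4 of 19 tested genes of the list, none of which fell, where 0.546% of all genes rose and 1.6% fell. The median of the 19 was 0.03. MAP3K8, a kinase upstream of MEK, rose by 0.93 ± 0.15 (limma adjusted p = 0.000457), from 273 to 354 with vehicle to 457 to 804 with Ind/GSK.

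Of 21 immediate early transcription factor genes tested, 5 rose and none fell by the brightest probe set, where 0.546% and 1.6% of all genes did. The risen ones were BHLHE40, a clock-linked repressor, by 1.42 ± 0.27, MAFF, a small MAF protein, by 1.01 ± 0.26, KLF6, a Krüppel-like factor, by 0.75 ± 0.11, MYC by 0.72 ± 0.14 and FOSL2, an AP-1 subunit, by 0.52 ± 0.12. FOS read 287, 232, 340 and 146 with vehicle and 572, 260, 1772 and 251 with Ind/GSK. Treated replicate 3 was far above the rest and replicates 2 and 4 of the treated group lay within the vehicle range, and the change of 1.04 ± 0.60 was not called (limma adjusted p = 0.309; 0.00637 with the replicate block). Without replicate 3 in any group the FOS change was 0.61 (limma adjusted p = 0.315). EGR1, the zinc finger factor downstream of ERK, went the other way. The brightest EGR1 probe set read 4830, 5481, 5628 and 5148 with vehicle and 2420, 3147, 4096 and 2932 with Ind/GSK. The groups did not overlap, but the change of -0.76 ± 0.23 missed the threshold (limma adjusted p = 0.063; 0.00709 with the replicate block). A dimmer EGR1 probe set, at 721 to 953 with vehicle and 344 to 498 with Ind/GSK, fell by 1.03 ± 0.17 (limma adjusted p = 0.000436) and was called under all 3 scalings, and the remaining one was at -0.67 (adjusted p = 0.053). With the replicate block 10 of the 21 rose and 6 fell, where 2.39% and 18.1% of all genes did.

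**Figure D2:**
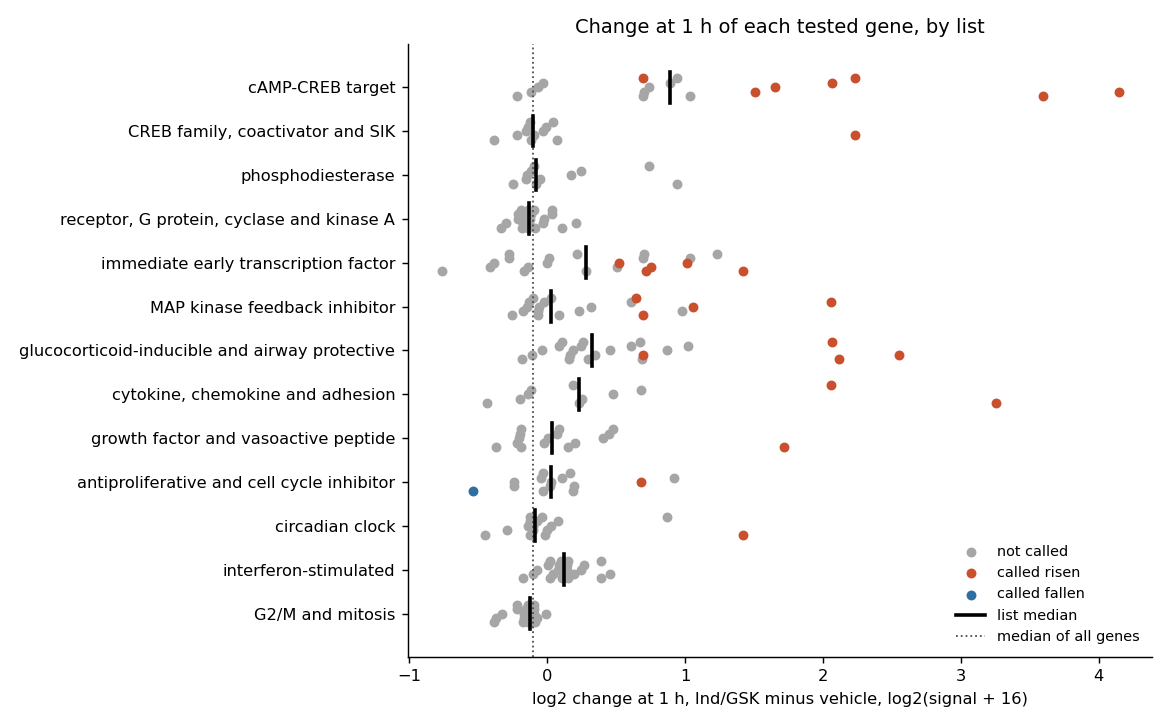
Log2 change at 1 h of every tested member of the gene lists, each gene a point by its brightest probe set, orange or blue where called as risen or fallen, with the list median as a bar and the median of all genes as a dotted line. The median is 0.89 for 17 cAMP-CREB target genes, 0.32 for 22 glucocorticoid-inducible and airway genes and -0.13 for 22 receptor, G protein, cyclase and kinase A genes.

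The remaining large rises were of mixed function. ZNF331, a zinc finger repressor, read 1072, 924, 717.5 and 932 with vehicle and 3834, 2032, 3558 and 1828 with Ind/GSK. It too rose most in replicates 1 and 3 (log2 change 1.55 ± 0.26, limma adjusted p = 0.000745), and it was the only one of 399 tested ZNF-named genes to rise. ITPRIP, which binds the inositol trisphosphate receptor, rose by 1.25 ± 0.22 (limma adjusted p = 0.000836), TGIF1, a homeobox repressor of TGFβ signalling, by 1.08 ± 0.16 (limma adjusted p = 9.51e-05) and PLK2, a polo-like kinase, by 1.14 ± 0.32 (limma adjusted p = 0.0449). TOB1, an antiproliferative adaptor of mRNA deadenylation, rose by 0.68 ± 0.09, the only one of 14 tested antiproliferative and cell cycle inhibitor genes to rise. PLK2 rested on few arrays: it was called in 2 of the 8 fits that left out 1 array, MAFF in 4, FOSL2 in 6, and the other rises named so far in all 8. Without both replicate 3 arrays at 1 h the adjusted p was 0.0809 for PLK2, 0.105 for MAFF and 0.0965 for FOSL2.

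A few smaller rises were picked for mention after their values were seen. AVPI1, a vasopressin-induced gene, rose by 0.88, CSRNP1, an immediate early nuclear protein, by 0.85, EFNA1, an ephrin ligand, by 0.83, ZFP36L1, an RNA-decay factor for AU-rich messages, by 0.72, NFKBIZ, a nuclear IκB protein, by 0.60, CITED2, a CBP/p300-binding regulator, by 0.56 and IRS2, an insulin receptor substrate, by 0.40. CALCRL, the receptor for calcitonin gene-related peptide and adrenomedullin that itself couples to Gs, rose by 0.81 but was not called after quantile normalization.

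Agreement between probe sets of a gene varied. Of 89 genes with a risen probe set, 46 had 1 tested probe set and 43 had several. In 14 of the 43 every tested probe set rose, and in 26 only 1 did. B4GALT1, a galactosyltransferase, was such a case: 1 of its 5 tested probe sets rose by 1.45 and the lowest was at -0.34. USP22, a deubiquitinase, had one probe set that rose by 0.60 and one that fell by 0.22 without further scaling. Among genes named above, 1 of 2 tested probe sets was called as risen for MAP3K8 (the other at 0.46), NFKBIZ (0.23) and IRS2 (0.40). For DUSP4 2 of 3 were called, for FOSL2 2 of 5 and for KLF6 4 of 5. All were called, but by unlike amounts, for PRDM1 (2.55 and 1.54) and TGIF1 (0.39 to 1.08).

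The size of the rises differed between replicate pairs. Over the 73 risen genes the median difference was 0.73 in pair 1, 0.72 in pair 2, 0.56 in pair 3 and 0.46 in pair 4. All 73 were higher with Ind/GSK in pairs 1, 2 and 3 and 68 in pair 4. Pair 3 had the largest difference for 30 of the 73 genes, pairs 1 and 2 for 20 each and pair 4 for 3. These 73 were called on the same values, so the counts describe them and test nothing. Leaving replicate 3 out of all groups changed the leading genes little: NR4A2 was at 3.62 (adjusted p = 0.00892), NR4A3 at 3.11, IL6 at 3.08, PRDM1 at 2.52, SIK1 at 2.21, SGK1 at 2.09 and TRIB1 at 1.95, and 80 of the 98 rises called under 3 scalings were called again.

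Falls were small and depended on how arrays were scaled. The 475 fallen probe sets had a median log2 change of -0.31, and the median over all tested was -0.12 before any further scaling and 0.00536 after 75th percentile centring. That centring gave 219 rises and 34 falls, quantile normalization 132 and 48, and centring on the median 83 and 72; falls were 80.9% of calls without further scaling and 13.4%, 26.7% and 46.5% under these. With the replicate number as a block, 308 were called as fallen with the former scaling and 521 with quantile normalization. By gene, 14 fell after the 75th percentile centring (0.105%) and 19 when quantile normalized (0.142%).

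The arrays differed in step with this. The 75th percentile of signal was 703, 686, 779.5 and 760.3 on Ind/GSK arrays 1 to 4 and 829, 799.9, 791 and 771 on the vehicle arrays. Arrays 1 and 2 of Ind/GSK were the low ones: their median change from the paired vehicle array was -0.20 and -0.19, against -0.04 and -0.05 in pairs 3 and 4. Hybridisation control transcripts, added in fixed amounts before hybridisation, averaged 11.12, 11.08, 11.25 and 11.24 on the log2 scale on Ind/GSK arrays, 11.36 to 11.43 on vehicle arrays and 11.33 to 11.44 with GS-5759. Other values ran the other way on Ind/GSK arrays 1 and 2. Poly-A control probe sets averaged 5.62, 5.56, 5.36 and 5.41 on Ind/GSK arrays 1 to 4 and 5.34 to 5.48 on vehicle arrays. The 25th percentile of signal was 49.2, 48.8, 47.8 and 46.1 on Ind/GSK arrays and 45.5 to 47.9 on vehicle arrays. The poly-A values and the 25th percentiles all lay below the filter on low signal (100.8, or 6.87 on the log2 scale). They thus describe only the dim end of the arrays. The part of these array differences in the falls was not tested. With Ind/GSK replicates 1 and 2 both left out, 43 of the 98 rises and 9 of the 30 falls called under 3 scalings were called again; with replicate numbers 1 and 2 left out of both groups, 19 and 0 were.

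**Figure D3:**
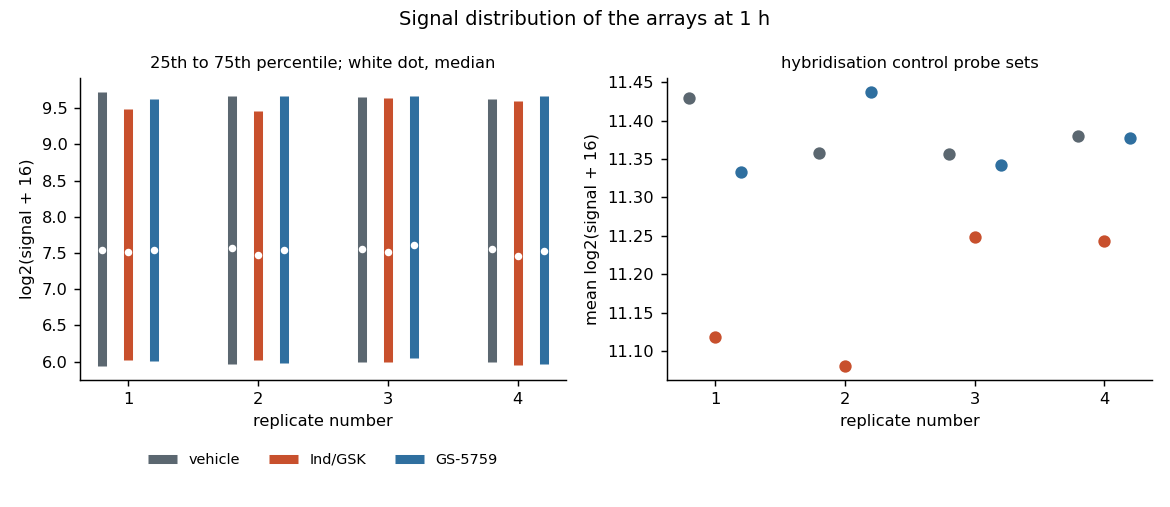
Left, the 25th to 75th percentile of log2(signal + 16) on each 1 h array (bar) with its median (dot); right, the mean log2 signal of the hybridisation control probe sets, by replicate number and treatment. Ind/GSK arrays 1 and 2 have the lowest 75th percentiles (9.49 and 9.45), and all 4 Ind/GSK arrays lie below all vehicle arrays in hybridisation control signal.

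**Figure D4:**
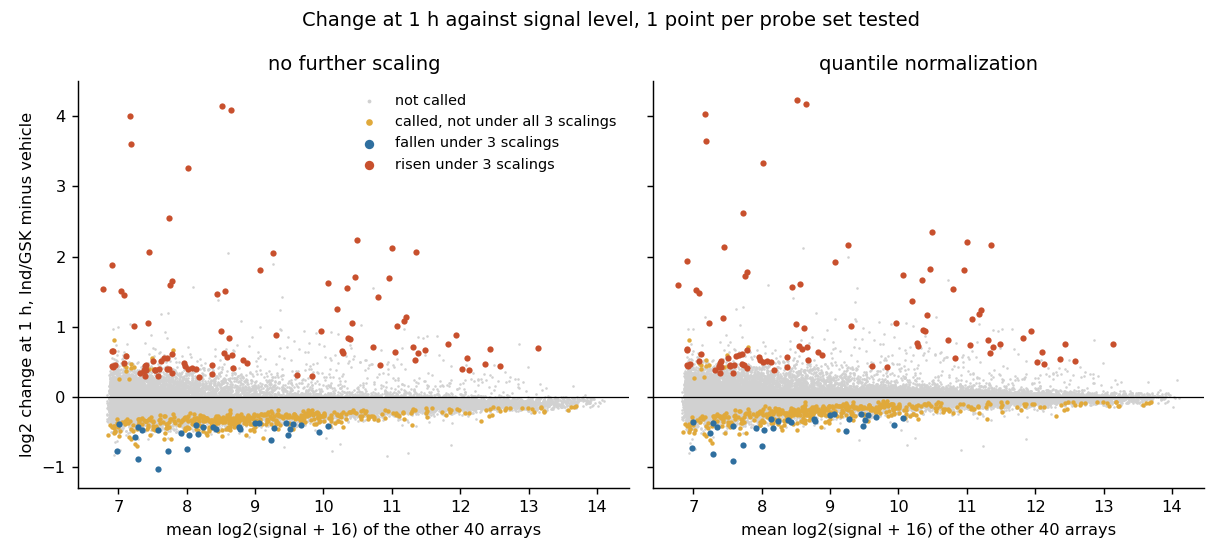
Log2 change at 1 h against mean log2(signal + 16) over the other 40 arrays for every tested probe set, without further scaling (left) and after quantile normalization (right), coloured by call. In the left panel the 98 rises called under 3 scalings reach 4.14 and the 30 such falls reach -1.03, while the median of all probe sets is -0.12, and -0.02 in the right panel.

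Of genes that fell under all 3 scalings by their brightest probe set there were 13. ZNF57, a zinc finger protein, read 759, 648, 630 and 719 with vehicle and 421, 414.5, 439.7 and 516 with Ind/GSK. The groups did not overlap, and replicate 4 was the highest treated array (log2 change -0.61 ± 0.08, limma adjusted p = 2.57e-05; -0.49 after quantile normalization). SERTAD3, a cell-cycle linked transcriptional coactivator, read 849, 877, 725 and 746 with vehicle and 559, 593, 491.5 and 532 with Ind/GSK. All 4 pairs fell by like amounts (-0.54 ± 0.09, limma adjusted p = 0.00035; -0.41 after quantile normalization). PARS2, the mitochondrial prolyl-tRNA synthetase, was at -0.53, BLOC1S3, a subunit of the lysosome biogenesis complex BLOC-1, at -0.53, DNAJC27, a small GTPase with a J domain, at -0.51, METTL18, a methyltransferase, at -0.50, LIPT1, a mitochondrial lipoyltransferase, at -0.45, ZNF432 at -0.45, RPUSD2, a pseudouridine synthase-like protein, at -0.42 and ZNF224 at -0.42. Of the 4 tested probe sets of ZNF224 only 1 was called as fallen, the brightest, and the highest was at -0.06. DNAJC27 had 1 of 2 called as fallen, with the other at -0.25. ZNF432 was called in 7 of the 8 fits with 1 array left out. In fits on only the 8 arrays of the comparison, 12 of the 98 rises and 0 of the 30 falls were called again.

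Several falls were in dim probe sets of genes whose brighter probe sets moved less. Of the 28 genes with a fall under 3 scalings, 18 had several tested probe sets, and in 16 of these only 1 fell under all 3. In 2 of the 18, COIL and RIT1, every one was called as fallen without further scaling, but not every one under all 3. TOP2A, topoisomerase IIα, fell by 0.88 in one probe set (limma adjusted p = 0.00561) and was at -0.12 in the brightest. KIF23, a mitotic kinesin, fell by 0.77 in one (limma adjusted p = 0.00121) and was at -0.11 in the other. NUDCD2 fell by 0.76 and RBM15, an RNA-binding protein of the m6A writer complex, by 0.745 in one probe set each, with the brightest at -0.11 and -0.12. RIT1, a RAS-related GTPase, was the broadest case, with 5 of 5 tested probe sets called as fallen without further scaling and 2 under all 3.

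ZNF-named zinc finger genes, many of them KRAB-type repressors, were examined as a list. Of 399 tested 32 were called as fallen without further scaling (1.6% of all genes were) and 4 under each of the other scalings, where ZNF331 alone or with 1 other gene rose. Their median was -0.20 without further scaling and -0.10 after quantile normalization, beside -0.10 and -0.01 over all genes, and 41 of the 399 were above 0. With the replicate block, 180 of the 399 were called as fallen, where 18.1% of all genes were. ZNF555 at -0.56, ZNF234 at -0.49, ZNF416 at -0.47 and ZNF3 at -0.47 were called without further scaling only (adjusted p after quantile normalization from 0.077 to 0.196).

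Of the 73 genes risen at 1 h, none was called as risen at 18 h, but 60 were still above 0. Over all probe sets tested the median change at 18 h was -0.03. The response was called as lower at 18 h than at 1 h for 7 of the 73, and for 0.0446% of all probe sets. The 73 were chosen on the same 1 h values, as were the 19 and 13 genes given below. A smaller later response is thus in part built in, and their counts and medians at later times only describe them. Each later time had its own 4 vehicle arrays. Of 13372 genes, 190 rose at 2 h (1.42%), 149 at 6 h (1.11%) and 1 at 18 h (0.00748%), while 285 fell at 2 h (2.13%). Of the 73 genes risen at 1 h, 33 rose at 2 h, 13 at 6 h and 0 at 18 h, with median changes of 0.59, 0.23, 0.18 and 0.18 at the 4 times. Of the 19 among them risen at least 2-fold, 18 rose at 2 h, 7 at 6 h and 0 at 18 h, with medians of 1.71, 1.91, 0.76 and 0.09. NR4A3 stood at 3.60, 5.46, 2.67 and 0.945 at 1, 2, 6 and 18 h, and NR4A2 at 4.14, 4.26, 2.48 and 0.57. LINC00473 stood at 1.51, 3.36, 2.35 and 0.76, with a difference between 2 and 1 h of 1.85 that missed the threshold (limma adjusted p = 0.0534). Of the 13 falls held under 3 scalings, 5 fell at 2 h and 0 at 6 and 18 h.

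**Figure D5:**
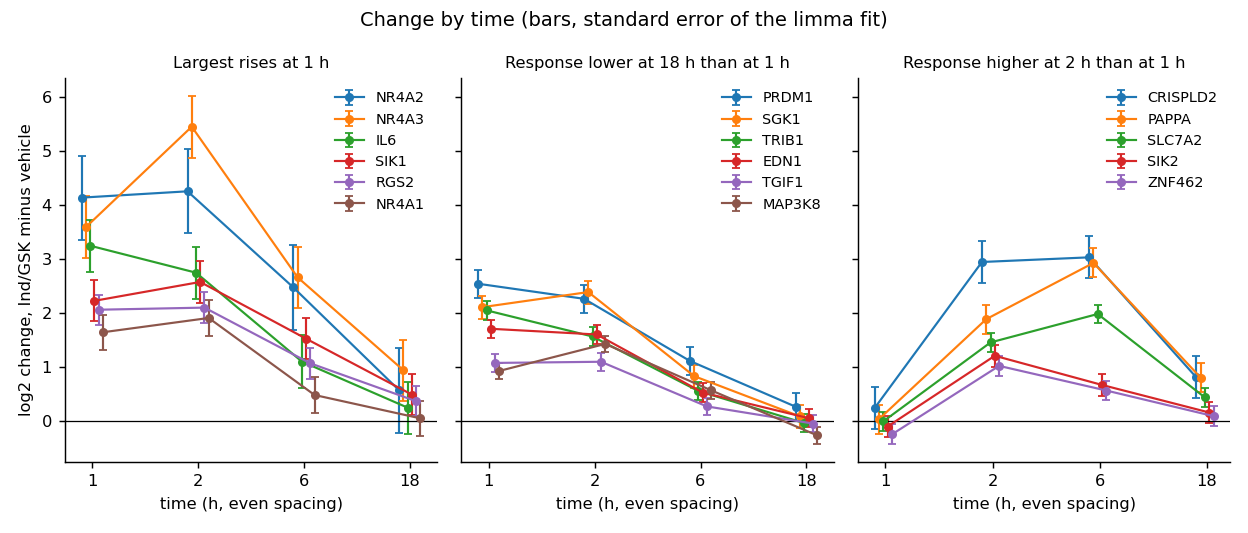
Log2 change with Ind/GSK against time-matched vehicle at 1, 2, 6 and 18 h for named genes, as points with standard errors of the fit and evenly spaced times. NR4A3 is at 3.60 at 1 h and 5.46 at 2 h, TRIB1 and EDN1 are highest at 1 h, and CRISPLD2 and PAPPA are at 0.25 and 0.04 at 1 h and at 3.04 and 2.94 at 6 h.

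Only a few of these shifts in time passed their own test. The response at 2 h was above that at 1 h for 42 probe sets (0.17%) and below it for 3 (0.0122%). CRISPLD2, a secreted protein known for glucocorticoid and cAMP induction, was at 0.25 at 1 h and 2.95 at 2 h, a difference of 2.70 ± 0.55 (limma adjusted p = 0.018). PAPPA, a protease of IGF-binding proteins, differed by 1.85 (limma adjusted p = 0.018), SLC7A2, a cationic amino acid transporter, by 1.46 (limma adjusted p = 0.00457), SIK2 by 1.31 (limma adjusted p = 0.0346) and the zinc finger gene ZNF462 by 1.27 (limma adjusted p = 0.0191). With the replicate block the counts were 750 and 72, and leaving out 1 array moved the first from 14 (without Ind/GSK replicate 2 at 1 h) to 69 (without Ind/GSK replicate 4 at 2 h). PDE4D was at 2.42 at 2 h (limma adjusted p = 0.00053), PDE4B at 0.93 (limma adjusted p = 0.0176) and CREM at 0.43 (limma adjusted p = 0.025), none with a difference from 1 h that was called. EGR1 was at -1.72 at 2 h (limma adjusted p = 4.69e-06) by its brightest probe set.

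By 18 h the response was below that at 1 h for 11 probe sets (0.0446%) and above it for 1 (0.00406%). The named genes among the lower ones were PRDM1 (difference -2.28, limma adjusted p = 0.00114), TRIB1 (-2.09, limma adjusted p = 4.22e-06), SGK1 (-2.03, limma adjusted p = 0.000271), EDN1 (-1.65, limma adjusted p = 0.000237), MAP3K8 (-1.19, limma adjusted p = 0.00659), TGIF1 (-1.12, limma adjusted p = 0.0363) and TOB1 (-0.77, limma adjusted p = 0.000936). NR4A2, NR4A3 and IL6 had larger differences (-2.65 for NR4A3 to -3.57 for NR4A2) with wider spread and were not called (adjusted p = 0.369, 0.356 and 0.112). With the replicate block the 18 h counts were 105 lower and 248 higher.

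GS-5759 at the same dose and time is the nearest comparison. It joins a β2 agonist and a phosphodiesterase 4 inhibitor in 1 molecule, whereas Ind/GSK is a pair of separate compounds. No probe set differed between GS-5759 and Ind/GSK at 1 h (0 higher, 0%, and 0 lower, 0%; limma), although 1980 had an unadjusted p below 0.05 and the lowest adjusted p was 0.0809. This was 1 pair of treatments, and the test uses no vehicle array. The difference, GS-5759 minus Ind/GSK on the log2 scale, was 0.10 for NR4A2 (95% interval -1.48 to 1.68), 0.18 for PRDM1 (-0.355 to 0.711), 0.08 for SGK1 (-0.355 to 0.507), 0.13 for TRIB1 (-0.216 to 0.48), 0.01 for EDN1 (-0.332 to 0.361) and 0.00 for DUSP1 (-0.196 to 0.2). The interval for NR4A2 is wide enough to hold a 2-fold difference either way, and those for the other 5 are not.

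Against the same vehicle arrays, 37 genes rose with GS-5759 at 1 h (0.277%). Of the 73 genes risen with Ind/GSK 35 were among them; the comparisons share their vehicle arrays, so this overlap is given as a count only. Falls were fewer: 63 probe sets rose and 7 fell with GS-5759, beside 112 and 475 with Ind/GSK, of the 24654 tested. Of the 13 genes that fell under 3 scalings with Ind/GSK, 1 was called as fallen with GS-5759. Their median change was -0.295 with GS-5759 and -0.454 with Ind/GSK, on whose values they were chosen. The median difference between the treatments was 0.10 over all tested probe sets. The part of array scaling in this was not tested.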

How the data were processed

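Expression was measured on Affymetrix Human Genome U133 Plus 2.0 arrays, 1 RNA sample per array. The deposited values are intensity on a linear scale for each probe set. The submitters' processing notes name PLIER and Affymetrix Expression Console; the version and any normalization between arrays are not given in the sources used here. Of 54675 probe sets, 41091 have exactly 1 gene symbol, 1801 several and 11721 none in the platform annotation; only the first were used, and 41037 of them were matched to current symbols by gene ID.

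Values were taken as log2(value + 16), so fold changes of dim probe sets are understated. The 24654 probe sets with a mean over 48 arrays above the 40th percentile (signal 100.8) were fitted with limma 3.58.1 (R 4.3.3; lmFit and eBayes) as 12 group means, with 36 residual degrees of freedom. The mean used by the filter includes the treated arrays, so a probe set dim with vehicle can pass through them. Adjusted p-values are Benjamini-Hochberg within each comparison. The replicate number as a block was an alternative: same-numbered vehicle and Ind/GSK arrays at 1 h had correlated deviations from their group means (0.245, 0.698, 0.914 and 0.603, all above 0.1), although different-numbered ones reached 0.687. The number of arrays limits the precision. Code was tested on simulated data.

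A gene is shown by its brightest probe set. The named genes are the 20 largest rises and the 10 largest falls with all arrays apart and all pairs in 1 direction (falls only if called without further scaling and also with arrays centred on their 75th percentile or quantile normalized), up to 6 called members of each list, a few pathway genes, and the largest differences between times. Members and lists were chosen with earlier results of these data known. Alternatives were other scalings, pseudocounts of 1 and 64, filters, the brightest probe set only, an intensity trend, only the arrays compared, and leaving out arrays.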

Additional observations from a re-analysis of the deposited data

Results flagged for a closer look

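In groups of 4 arrays at 1 h, one array stood outside the other 3 in 11 of 128 gene and group combinations by Dixon's test. Chance alone gives about 1 in 20, but the 11 cannot be read against that share. Basal keratinocyte genes accounted for 6 of the 11 and were added because replicate 3 was already seen to stand out. KRT14 was 186900 in vehicle replicate 3 (next 29.96) and 291000 in Ind/GSK replicate 3 (next 31.82), KRT5 was 31160 and 29510 (next 164.6 and 260.7), and S100A2 was 10600 and 8881 (next 459.4 and 393.3). The others were MAP3K8 in vehicle replicate 3 at 354 (next 281.8), LIPT1 in vehicle replicate 1 at 420.5 (next 365.2), MYC in Ind/GSK replicate 3 at 7056 (next 4926), and LOC101928985 in vehicle replicate 4 at 88.34 (next 69.34). LOC401261 was low in Ind/GSK replicate 1 at 65.97 (next 120.3).

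Responses that differed between times by the limma test of the difference itself (4 arrays per group) were larger at 2 h than at 1 h for CRISPLD2 (2.70), PAPPA (1.85), SLC7A2 (1.46), SIK2 (1.31) and ZNF462 (1.27). They were smaller at 2 h for SLC5A7 (-0.70) and OR7E104P (-0.44). At 18 h they were smaller than at 1 h for PRDM1 (-2.28), TRIB1 (-2.09), SGK1 (-2.03), EDN1 (-1.65), MAP3K8 (-1.19), TGIF1 (-1.12) and TOB1 (-0.77), and larger for P4HTM (0.35).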

How the results depend on the processing

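No change of a named gene called at 1 h reversed under any alternative; of those not called, CREM, SIK2, CRISPLD2, PAPPA, SLC7A2 and P4HTM changed sign under some. At 1 h (112 risen, 475 fallen) the counts were 501 and 5093 with the replicate block, 695 and 308 when arrays were also centred on the 75th percentile, 219 and 34 with that centring alone, 83 and 72 with median centring, 132 and 48 with quantile normalization, 108 and 240 without a filter, 55 and 408 with a filter at the 60th percentile, 68 and 214 with brightest probe sets only, 12 and 0 with only the arrays compared, and 59 and 263 without replicate 3 at 1 h. With settings chosen after seeing the data they were 548 and 521 with the block and quantile normalization, 132 and 911 without replicate 3 in any group, 47 and 22 without Ind/GSK replicates 1 and 2, and 19 and 2 without replicate numbers 1 and 2. Leaving out 1 array gave 52 to 183 and 84 to 706. For 2 h minus 1 h (42 higher, 3 lower) the counts were 750 and 72 with the block, 282 and 164 with block and centring, 19 and 5 with 75th percentile centring, 26 and 5 with quantile normalization, 26 and 2 without a filter, 33 and 1 at the 60th percentile, 18 and 2 with brightest probe sets, 16 and 0 with only the arrays compared, 105 and 8 without replicate 3, and 14 to 69 and 0 to 20 with 1 array left out. For 18 h minus 1 h (1 higher, 11 lower) they were 248 and 105 with the block, 36 and 166 with block and centring, 0 and 23 with 75th percentile centring, 0 and 12 with median centring, 0 and 19 with quantile normalization, 1 and 7 with brightest probe sets, 0 and 8 with only the arrays compared, and 1 to 2 and 10 to 16 with 1 array left out. GS-5759 minus Ind/GSK (0 and 0) gave 1 and 1 with the block, and 0 and 1 with 75th percentile centring, with or without it. Fewer probe sets or samples enter some settings by construction; for the others the cause was not tested. Of the 61 named genes the block added calls for PDE4B, PDE4D, FOS, EGR1 and ZNF462. Probe sets under signal 100.8 were not tested, and 4 arrays per group limit what can be called.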

Other observations

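Interferon-stimulated genes, which encode antiviral proteins, were slightly above vehicle as a list without any call: 19 of 22 tested were above 0, the median log2 change was 0.12 (0.21 after quantile normalization), and the range was -0.18 to 0.46. RSAD2, an antiviral enzyme, was highest at 0.46 ± 0.48 (SE, n = 4; limma adjusted p = 0.581). Genes of G2/M and mitosis were all below 0 (0 of 23 above, median -0.12, -0.05 after quantile normalization), and none was called at 1 h by the brightest probe set. Over all 13372 genes the median was -0.10 (-0.01 after quantile normalization), and 2576 were above 0. After 75th percentile centring the G2/M median was -0.00333, beside 0.0196 over all genes. At 2 h 7 of the 23 fell, where 2.13% of all genes did. Of 13 tested YAP-TEAD target genes, 8 heat shock genes and 10 reference genes none was called, and of 16 clock genes BHLHE40 alone rose. With the replicate block, 3 reference and 2 heat shock genes fell, 1 YAP-TEAD gene rose and 1 fell, and 2 clock genes rose and 2 fell. Of all genes 2.39% rose and 18.1% fell with that block.

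Long non-coding RNA genes by symbol counted 9 risen and 10 fallen of 816 tested, with a median of 0.00653, where 0.546% and 1.6% of all genes rose and fell. LOC101928985 (0.66), UST-AS1 (0.56) and LINC01312 (0.46) rose, the last pair not after quantile normalization, while LOC401261 (-0.66) and LOC105372255 (-0.60) were called as fallen only without further scaling.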
